A study of Mus musculus with 6 samples.

Results

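The circadian clock genes described here are Clock, Npas2, Arntl, Per1, Per2, Per3, Cry1, Cry2, Nr1d1 and Dbp. They were found by gene symbol, with no use of any measured value, and all 10 were present among the 22602 genes listed for mouse embryonic stem (ES) cells. Messenger RNA had been sequenced from 6 cultures of such cells, 3 per group. The Sim2 group held 1 culture from each of the clones A6, B8 and C4, in which a Flag-tagged mouse Sim2 gene followed by an IRES and Venus sits at the ROSA26 locus under the hCMV*-1 promoter, driven by a transactivator (tTA) that tetracycline holds off. The EB3 group held 3 cultures, numbered 0, 1 and 2, of the parental line EBRTcH3, which lacks the Sim2-Flag transgene. The paper reports that Venus was induced in EB3 as well as in the clones. All cultures of both groups had spent 26 h in tetracycline-free medium when RNA was taken. The groups therefore differ in the Sim2-Flag transgene and in clonal origin, and these cannot be told apart. The EB3 libraries come from a single line, and a p-value measures the spread between clones on one side and between cultures of that line on the other.

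The circadian clock is a feedback loop of transcription that runs in most mammalian cells. CLOCK, or its relative NPAS2, pairs with BMAL1, the product of Arntl, and the pair activates genes through E-box elements, among them the period and cryptochrome genes. PER and CRY proteins then enter the nucleus and repress their own activators. A second loop runs through NR1D1, a haem-binding nuclear receptor that represses Arntl, and DBP is an output factor that binds D-box elements. CLOCK, NPAS2, BMAL1 and the PER proteins share the PAS domain with SIM2, the factor switched on in the clones, which pairs with ARNT and binds the CME element. ES cells are known to lack an overt circadian rhythm until they differentiate. A single time point was sampled, so the values below are levels and carry no phase.

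The elements through which these factors act were looked for in the 1000 bases before the listed start of each gene, on both strands, in the mm9 genome. An E-box (CACGTG) stood before 3 of the 10 genes, namely Per1, Cry1 and Nr1d1, against 16.7% of the 22602 listed genes. The CME (TACGTG) stood before Npas2 alone, against 11.5% of listed genes, and the D-box (TTATGTAA) before Per2 and Per3, against 3.99%. The element bound by NR1D1 and its ROR counterparts (RRE) was found before 0.726% of listed genes and before none of the 10. The E-box reads the same on both strands, it differs from the CME in its first base, and no printed match overlaps another. A match is a run of letters in this window and no measure of binding. The 9 matches are shown because, for these exact letters in this window, Per1 holds E-boxes where Per2 and Per3 hold D-boxes. Other spellings of an element and positions outside the window were not searched. Each is printed 5′ to 3′ on the gene's own strand with 12 bases on either side, the element in capitals.

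Per1 E-box, 536 to 531 bases before the start, chr11:68911910-68911939, plus strand: accccttaacgaCACGTGggccctcaattg
Per1 E-box, 173 to 168 bases before the start, chr11:68912273-68912302, plus strand: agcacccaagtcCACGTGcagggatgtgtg
Cry1 E-box, 60 to 55 bases before the start, chr10:84647842-84647871, minus strand: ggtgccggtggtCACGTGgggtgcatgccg
Nr1d1 E-box, 458 to 453 bases before the start, chr11:98636997-98637026, minus strand: cagttctccaatCACGTGaagctctcacgt
Npas2 CME, 218 to 213 bases before the start, chr1:39250887-39250916, plus strand: ctcgggtgggaaTACGTGcgcgtggctcgc
Per2 D-box, 121 to 114 bases before the start, chr1:93356007-93356038, minus strand: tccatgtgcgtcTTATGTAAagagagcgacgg
Per3 D-box, 713 to 706 bases before the start, chr4:150419425-150419456, minus strand: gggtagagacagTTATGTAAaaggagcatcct
Per3 D-box, 248 to 241 bases before the start, chr4:150418960-150418991, minus strand: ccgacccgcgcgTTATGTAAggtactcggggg
Per3 D-box, 201 to 194 bases before the start, chr4:150418913-150418944, minus strand: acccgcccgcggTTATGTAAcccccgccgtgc

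**Figure D1:**
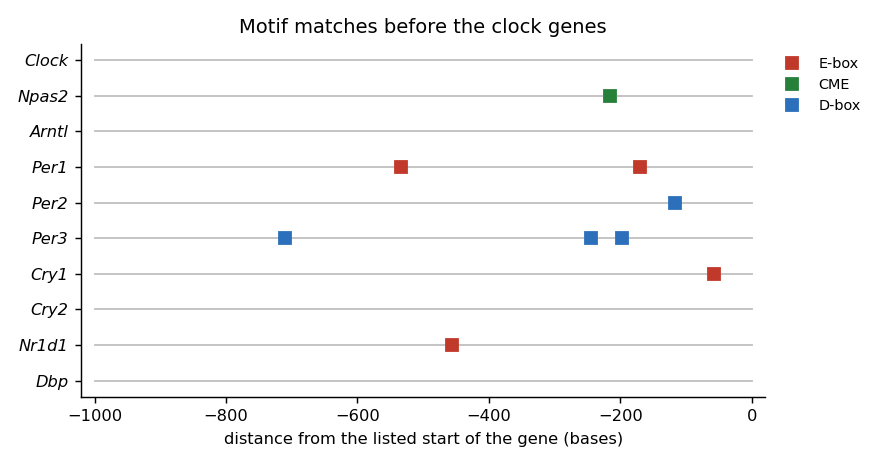
Matches of the E-box, the CME and the D-box in the 1000 bases before each of the 10 clock genes. The x axis is the distance from the listed start in bases, each row is a gene and each square a match. Per1 holds 2 E-boxes and Per3 holds 3 D-boxes, while Clock, Arntl, Cry2 and Dbp hold no match of these elements.

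Levels are in RPKM, which scales the reads of a gene by its cDNA length and by the depth of the library, so they can be compared between genes. The libraries held 25095861 to 28269340 reads. Sim2 itself, read to check the labels, stood at 196.0, 212.4 and 168.4 RPKM in A6, B8 and C4 and at 0.0917 to 0.130 RPKM in the EB3 cultures. The 6 pluripotency markers (Pou5f1, Sox2, Nanog, Klf4, Esrrb and Zfp42) were all above 1 RPKM on average and summed to 2906 to 3124 RPKM per clone and 3079 to 3412 RPKM per EB3 culture. Markers of other cells summed to far less. Those of fibroblasts summed to 10.7 to 13.8 RPKM per clone and 10.1 to 13.3 RPKM per EB3 culture. A single fibroblast marker averaged 11.9 RPKM and made up most of that sum, while Postn and Twist2 were at 0 in every library. Primitive endoderm markers summed to 3.52 to 4.18 RPKM per clone and 2.30 to 2.64 RPKM per EB3 culture, without overlap. Only 1 of these 5 markers averaged at least 1 RPKM, at 1.56 RPKM, so the sum is of low values. Of all single tested genes, 26.1% had groups that did not overlap. The 4 measured neural markers summed to 2.69 to 6.39 and 3.99 to 5.91 RPKM. Only markers averaging at least 1 RPKM entered the limma test used below. These were 6 of pluripotency, 1 of fibroblasts, 1 of primitive endoderm and 2 of neural cells. None of them was called, where 0.699% of all tested genes were called, and the other markers were not tested. In bulk RNA, fewer expressing cells and less RNA per cell cannot be told apart. The culture EB3-0 stood apart from the other EB3 cultures, with a Pearson r over the tested genes of 0.980 with EB3-1, where EB3-1 and EB3-2 reached 0.997. Clone B8 stood apart from the other clones, at 0.979 with A6 and 0.982 with C4, where A6 and C4 reached 0.993. The lowest r of any pair, 0.960, was that of B8 and EB3-0.

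The cryptochromes, the repressors of the core loop, were the most abundant clock transcripts. Cry1 averaged 18.7 RPKM over the 6 libraries, above 60.4% of the tested genes, and Cry2 averaged 13.4 RPKM, above 51.5%. A middle group followed, made of Nr1d1 at 8.70, Per1 at 7.56, Dbp at 7.49 and Arntl at 6.96 RPKM. Clock averaged 3.66 RPKM and Per3 1.35 RPKM, the latter above only 4.24% of the tested genes. Per2, in many tissues a strongly cycling repressor, was at 0.615 RPKM, and Npas2, the substitute for Clock in the forebrain, was at 0.0490 RPKM with 1 to 15 reads per library.

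Of the 9 steps in this order, 6 went the same way in 6 of 6 libraries, each with an exact 2-sided sign-flip permutation p of 0.03125, the smallest that 6 libraries allow, and 0.0469 after adjustment over the 9 steps. The order was read from the same libraries, which favours this outcome. The levels of Nr1d1 and Per1 did not separate beyond their spread, with that order in 5 of 6 libraries and an exact p of 0.0625. Neither did Per1 and Dbp (5 of 6 libraries, exact p = 0.656) nor Dbp and Arntl (3 of 6 libraries, exact p = 0.719). Steps between genes that are not neighbours in the order were not tested.

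**Figure D2:**
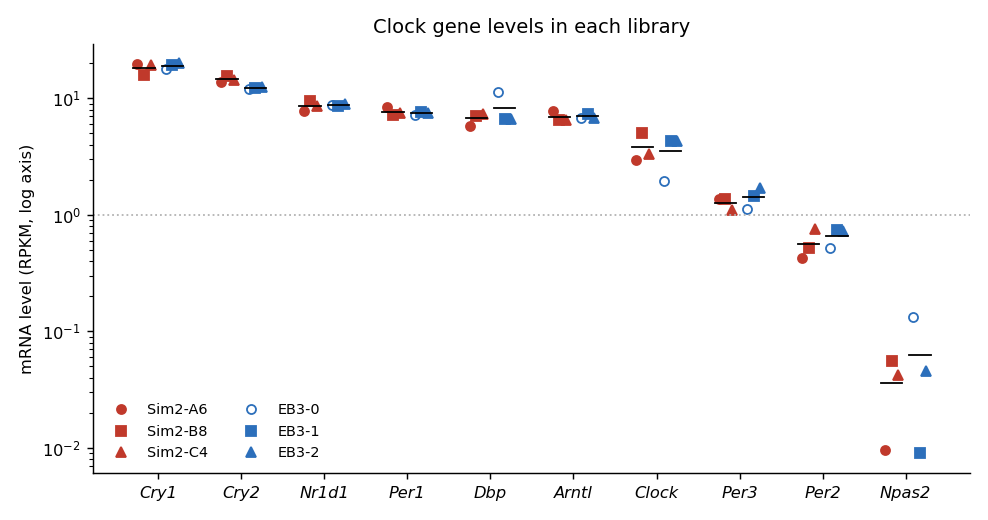
Level of each clock gene in each library, in RPKM on a log axis. Red symbols are the Sim2 clones, blue symbols the EB3 cultures with EB3-0 open, black bars the group means, and the dotted line is 1 RPKM. Cry1 and Cry2 lie highest in both groups, Per2 and Npas2 lie under the line, and EB3-0 stands away from the other EB3 cultures at Dbp (11.4 RPKM) and Clock (1.97 RPKM).

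Summed over the 10 genes, the clock transcripts came to 67.9 to 69.3 RPKM in every library, with 68.57 ± 0.300 RPKM for the clones against 68.47 ± 0.717 RPKM for EB3 (SD, n = 3). The cryptochromes made up 44.0 to 49.4% of that sum, the bHLH-PAS activators Clock, Npas2 and Arntl 13.2 to 17.1%, and the period genes 13.1 to 15.0%. Nr1d1 made up 11.3 to 13.9% and Dbp 8.49 to 16.9%. The widest of these ranges, that of Dbp, is set by EB3-0, the only library above 10.6%.

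Sim2 stood at a far higher transcript level than the PAS factors of the clock in the clones. Its RPKM was 65.7, 42.2 and 50.3 times that of Clock in A6, B8 and C4, and 25.3, 32.8 and 26.0 times that of Arntl. Against Per1, the most abundant period gene, the ratios were 23.1, 29.7 and 22.6. Arnt, the partner of SIM2 and the paralog of Arntl, averaged 19.6 ± 1.62 RPKM over the clones and 19.8 ± 0.809 RPKM over EB3 (SD, n = 3), a log2 fold change of -0.024 ± 0.10 (SE; adjusted p = 0.930 in limma). It was 2.56 to 3.24 times as abundant as Arntl in all 6 libraries.

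The comparison of the groups asks whether the clock transcripts differ once Sim2 has been on for 26 h. None of them passed the test. A total of 8 of the 10 genes had a mean of at least 1 RPKM and entered the fit of 11595 genes with limma on log2(RPKM + 0.5). Of these 8, 0 were called at an adjusted p under 0.05, where 0.699% of all tested genes were called. At an unadjusted limma p under 0.05 there was 1, Cry2, against 17.8% of tested genes. The 3 that were higher and the 5 that were lower in the clones had log2 fold changes between -0.24 and 0.24, with a median of -0.030 against -0.0055 over all tested genes. All 8 lay within 0.5 of zero, as did 92.1% of the tested genes. When each library was left out in turn, Cry2 stayed higher in the clones, Per3 ran from -0.23 without EB3-0 to -0.00029 without EB3-2, and Clock, Arntl, Per1, Cry1, Nr1d1 and Dbp each changed direction at least once. A fold change on this scale understates the change of a gene with a low level.

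**Figure D3:**
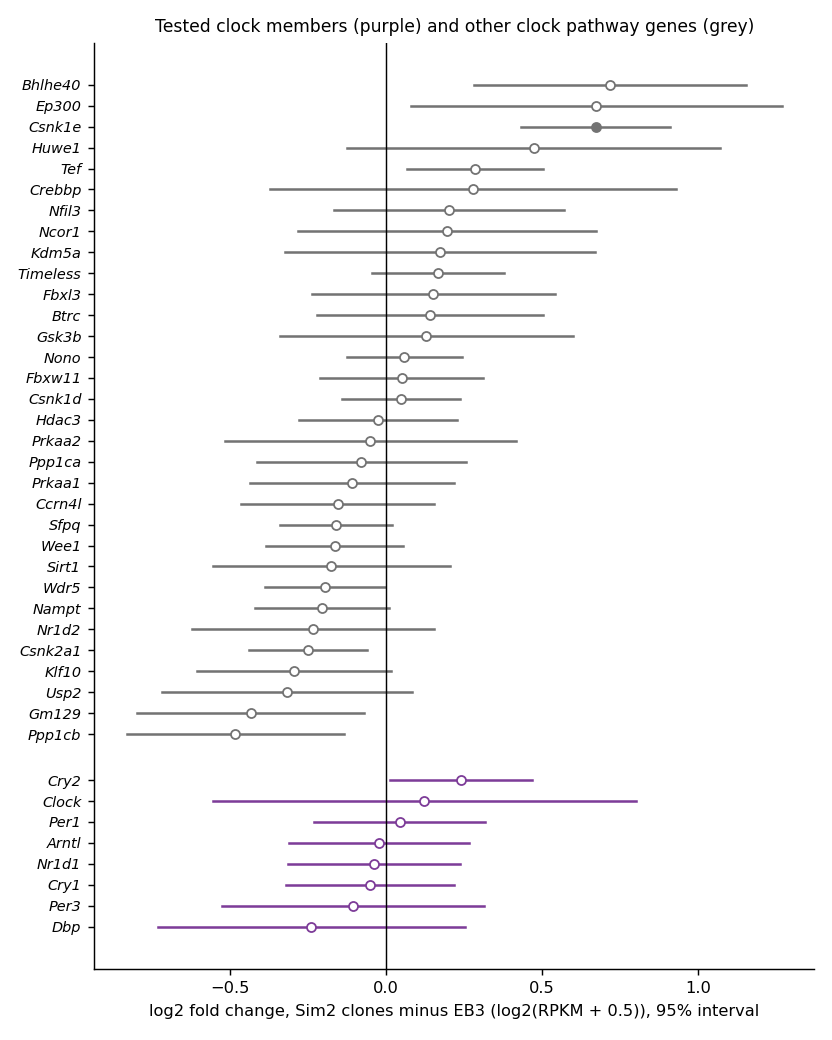
Difference between the Sim2 clones and EB3 in log2(RPKM + 0.5) with its 95% interval from limma, for the 8 tested clock genes (purple) and 32 other genes of the clock pathway (grey). Filled circles mark an adjusted p under 0.05, which only Csnk1e reached. The interval of Cry2 (0.012 to 0.47) excludes 0 before adjustment, and those of Clock and Dbp are the widest among the purple genes.

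Among the activators, Clock (chr5:76641202-76733573, minus strand) was at 2.98, 5.03 and 3.35 RPKM in A6, B8 and C4 and at 1.97, 4.35 and 4.31 RPKM in EB3-0, EB3-1 and EB3-2. B8 was the highest library and EB3-0 the lowest, and the groups overlapped. Clone and EB3 means were 3.79 ± 1.09 and 3.54 ± 1.36 RPKM (SD, n = 3), a log2 fold change of 0.12 ± 0.30 (SE; 95% interval -0.55 to 0.80, limma adjusted p = 0.863). Without EB3-0 the log2 fold change of Clock was -0.20 (limma adjusted p = 0.583). Without B8 it was -0.075 (limma adjusted p = 0.950).

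Arntl (chr7:120350979-120457640, plus strand), whose product BMAL1 is the obligate partner in the loop, was at 7.76, 6.49 and 6.48 RPKM in A6, B8 and C4 and at 6.84, 7.33 and 6.84 RPKM in EB3-0, EB3-1 and EB3-2. The highest value was that of A6 and the groups overlapped. Its log2 fold change was -0.022 ± 0.13 (SE; 95% interval -0.31 to 0.27, limma adjusted p = 0.948). Npas2 (chr1:39251117-39420085, plus strand) had 1, 6 and 5 reads in A6, B8 and C4 and 15, 1 and 5 reads in EB3-0, EB3-1 and EB3-2, and no difference was detectable at this depth. In a fit with no filter on low values its log2 fold change was -0.064 ± 0.085 (SE; adjusted p = 0.772 in limma).

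The period genes, PAS proteins without a DNA-binding domain that carry CRY into the repressive complex, also overlapped between the groups. Per1 (chr11:68912458-68923459, plus strand) was at 8.48, 7.15 and 7.45 RPKM in A6, B8 and C4 and at 7.23, 7.57 and 7.51 RPKM in EB3-0, EB3-1 and EB3-2. A6 was the highest and B8 the lowest, with the EB3 cultures between them. The log2 fold change of Per1 was 0.044 ± 0.12 (SE; 95% interval -0.23 to 0.32, limma adjusted p = 0.883).

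Per2 (chr1:93312559-93355905, minus strand) was at 0.423, 0.519 and 0.757 RPKM in the 3 clones and at 0.521, 0.743 and 0.729 RPKM in the EB3 cultures, from 62 to 125 reads. The groups overlapped from end to end, with C4 the highest library and A6 the lowest. Without the filter its log2 fold change was -0.13 ± 0.16 (SE; 95% interval -0.50 to 0.24, limma adjusted p = 0.743).

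Per3 (chr4:150377764-150418731, minus strand) was at 1.37, 1.36 and 1.11 RPKM in the clones and at 1.11, 1.45 and 1.71 RPKM in EB3. C4 and EB3-0 were alike at the bottom and EB3-2 was at the top. The log2 fold change of Per3 was -0.11 ± 0.18 (SE; 95% interval -0.52 to 0.31, limma adjusted p = 0.804).

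The cryptochromes, flavoproteins that hold CLOCK and BMAL1 in check, differed in whether their groups overlapped. Cry1 (chr10:84594445-84647799, minus strand) was at 19.9, 15.8 and 19.5 RPKM in A6, B8 and C4 and at 17.8, 19.3 and 19.9 RPKM in EB3-0, EB3-1 and EB3-2. B8 alone was low among the clones, and the groups overlapped. Its log2 fold change was -0.052 ± 0.12 (SE; 95% interval -0.32 to 0.22, limma adjusted p = 0.854).

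Cry2 (chr2:92243804-92274226, minus strand) was at 13.9, 15.5 and 14.4 RPKM in A6, B8 and C4 and at 12.1, 12.2 and 12.5 RPKM in EB3-0, EB3-1 and EB3-2. Each clone was above each EB3 culture, and Cry2 was the only one of the 8 tested genes whose groups did not overlap, as was the case for 26.1% of all tested genes. The means were 14.6 ± 0.815 RPKM and 12.3 ± 0.220 RPKM (SD, n = 3), a 1.18-fold difference with a 95% interval of 1.01 to 1.38. The unadjusted limma p was 0.0413 and the adjusted p 0.261, and the exact 2-sided permutation p was 0.1, the smallest that 3 libraries against 3 can give. The 20 nearest tested genes on chromosome 2 had a median log2 fold change of 0.13, with 14 of the 20 higher in the clones, beside 0.24 for Cry2. With trends in cDNA length and GC content removed, the log2 fold change of Cry2 was 0.10 (limma adjusted p = 0.546). Cry2 shares 295 of its 6320 annotated exon bases with D930015M05Rik on the opposite strand, listed at 1.23 to 2.51 RPKM, and reads of the pair cannot be told apart without strand.

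Nr1d1 (chr11:98629249-98636556, minus strand), the haem receptor of the second loop, was at 7.72, 9.51 and 8.52 RPKM in A6, B8 and C4 and at 8.76, 8.68 and 8.97 RPKM in EB3-0, EB3-1 and EB3-2. The EB3 values lay between those of A6 and B8. Its log2 fold change was -0.039 ± 0.12 (SE; 95% interval -0.31 to 0.24, limma adjusted p = 0.899). Thra, which encodes a thyroid hormone receptor, runs into Nr1d1 from the opposite strand in the annotation and shares 263 of its 3124 exon bases. Thra was at 5.71, 4.86 and 3.83 RPKM in the clones and at 3.26, 3.53 and 3.65 RPKM in EB3, without overlap, and had a log2 fold change of 0.40 ± 0.17 (SE; adjusted p = 0.263 in limma).

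Dbp (chr7:52960617-52965573, plus strand), the D-box factor of the clock's output, was at 5.79, 7.12 and 7.27 RPKM in A6, B8 and C4 and at 11.4, 6.62 and 6.71 RPKM in EB3-0, EB3-1 and EB3-2. EB3-0 was far above the other libraries, which ran from 5.79 to 7.27 RPKM. The log2 fold change of Dbp was -0.24 ± 0.21 (SE; 95% interval -0.73 to 0.25, limma adjusted p = 0.606), and without EB3-0 it was 0.0066 (limma adjusted p = 0.979). Sphk2, a sphingosine kinase gene on the opposite strand, shares 491 of the 2945 annotated exon bases of Dbp. It was at 20.02 to 22.6 RPKM in every library, above Dbp. Reads of the pair cannot be told apart without strand, so the level of Dbp and its place among the clock genes are uncertain.

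Related genes were also compared within each library, as 6 ratios tested on log2 values of RPKM + 0.5. With 3 libraries against 3 the smallest exact permutation p is 0.1, so no pair could pass, and the 2-sided adjusted p-values were 0.6 to 1. The ratios printed here are of RPKM, and the differences are on the tested scale. The ratio of Cry1 to Cry2 was 1.43, 1.02 and 1.35 in A6, B8 and C4 and 1.48, 1.58 and 1.60 in EB3-0, EB3-1 and EB3-2. Each clone was below each EB3 culture, by -0.29 on the log2 scale on average (exact p = 0.1). The difference was -0.15 without B8 and -0.18 with trends in length and GC content removed. Per1 exceeded Per2 by 9.83 to 20.04 times in the clones and by 10.2 to 13.9 times in EB3. Nr1d2, the paralog of Nr1d1, was at 0.849 to 0.903 times the level of Nr1d1 in the clones and at 0.787 to 1.18 times in EB3, a range that contains the clones.

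The distance of EB3-0 from the other EB3 cultures varied with cDNA length, and Dbp and Clock have the shortest and the longest cDNA of the 10 genes. In EB3-0, tested genes with a cDNA under 1000 bases were higher than in the mean of EB3-1 and EB3-2 by a median of 0.35 on the log2 scale, and those of 7000 bases or more were at a median of -0.57. Dbp (1678 bases) was 0.74 higher in EB3-0, where its length and GC content predict 0.33. Clock (7478 bases) was at -0.97, where -0.61 is predicted. Per3 (5953 bases) was at -0.36 with -0.22 predicted. Cry2, Nr1d1, Arntl and Per1 differed by -0.057 to -0.010 in EB3-0. Counted over the 10 genes, 8 were lower in that library, among them Nr1d1 at only -0.010. The share of all genes lower in EB3-0 is not given here, so the count cannot be set against it. Why EB3-0 differs was not tested.

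**Figure D4:**
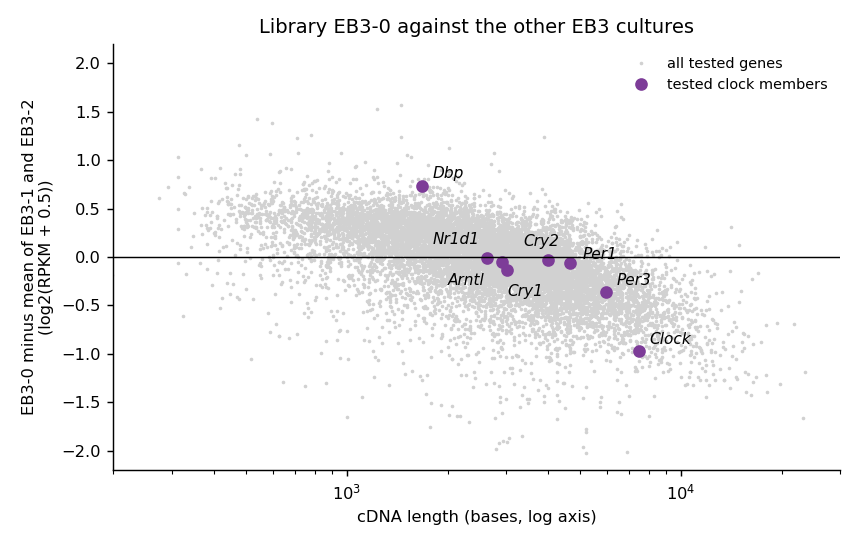
Difference between EB3-0 and the mean of EB3-1 and EB3-2 in log2(RPKM + 0.5) against cDNA length in bases on a log axis, for all tested genes (grey) and the 8 tested clock genes (purple). The grey cloud slopes down with length. Dbp (0.74) is the shortest and Clock (-0.97) the longest of the purple genes, and the clock genes of middle length lie near 0.

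The rest of the clock pathway was described with 39 further genes, matched by symbol, of which 32 were tested. They were split evenly, 16 higher and 16 lower in the clones (12 and 20 without EB3-0), and their median was 0.011 on the log2 scale. A single gene, Csnk1e, was called in limma, where 0.345% of tested genes were called higher. At an unadjusted p under 0.05 there were 8 of the 32, with 4 in each direction, against 17.8% of all tested genes. The groups did not overlap for 11 of the 32, against 26.1% of all tested genes.

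By role, 5 repressors (Gm129, Bhlhe40, Timeless, Nono and Sfpq) gave 3 higher and 2 lower with 0 called, and 7 chromatin cofactors gave 4 higher and 3 lower with 0 called. Without EB3-0 the cofactors gave 2 higher and 5 lower. The 8 kinases and phosphatases gave 3 higher and 5 lower with 1 called, Csnk1e. The 2 tested bZIP output genes, Tef and Nfil3, were higher with 0 called. The 4 tested ubiquitin ligases, which mark clock proteins for destruction, had values of 0.051 to 0.47 and 0 called, and without EB3-0 they gave 2 higher and 2 lower. The 5 clock-controlled target genes (Usp2, Wee1, Nampt, Ccrn4l and Klf10) had values of -0.32 to -0.15 with 0 called, where 5901 of the 11595 tested genes were below zero and 0.354% were called lower. Ccrn4l was at 0.000445 without B8, and Nampt went from -0.20 to -0.048 with trends in length and GC content removed. Only Nr1d2 among the nuclear receptors passed the filter. Rora and Rorb, which activate Arntl where NR1D1 represses it, averaged 0.189 and 0.00266 RPKM.

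Csnk1e (chr15:79248282-79272487) encodes casein kinase 1 epsilon, which phosphorylates PER proteins. It was at 61.4, 57.7 and 54.9 RPKM in A6, B8 and C4 and at 41.1, 34.3 and 33.6 RPKM in EB3-0, EB3-1 and EB3-2. Each clone was above each EB3 culture, with means of 58.0 ± 3.26 and 36.3 ± 4.12 RPKM (SD, n = 3). The log2 fold change was 0.67 ± 0.10 (SE; 95% interval 0.43 to 0.91, limma adjusted p = 0.0383). Without EB3-0 the adjusted p in limma was 0.0117, and it was over 0.05, up to 0.199, when any other library was left out. The log2 fold change of Csnk1e was 0.58 to 0.76 under all 16 other settings. The call held with a pseudocount of 0.1 or 1, a filter of 0.5 RPKM, trends removed (0.0135) and voom (0.0479), and was lost with no filter on low values (0.0635), with median centring (0.0627), with TMM factors (0.0930), with no intensity trend (0.0734) and with EB3-1 and EB3-2 averaged (0.183), as adjusted p in limma. An opposite-strand transcript, Gm16059, shares 267 of its 6410 exon bases.

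The genes around Csnk1e were also higher in the clones. Within 8 Mb on chromosome 15, 200 tested neighbours had a median log2 fold change of 0.28, and 181 of them, 90.5%, were above zero, against 49.1% of all tested genes. Csnk1e was 0.39 above that median, and 14 of the neighbours, Ep300 among them, were at or above Csnk1e. Tef, a relative of Dbp, lies 2.39 Mb away and was at 16.5, 17.2 and 15.9 RPKM in A6, B8 and C4 and at 13.2, 13.3 and 13.9 RPKM in EB3-0, EB3-1 and EB3-2. Its groups did not overlap, and its log2 fold change of 0.29 ± 0.10 (SE; adjusted p = 0.176 in limma) was 0.0047 above the median of the stretch. With trends in length and GC content removed it was 0.16, and a copy of 474 bases at 99.6% identity makes the level of Tef uncertain. The part of this stretch in the values of Csnk1e and Tef was not tested.

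**Figure D5:**
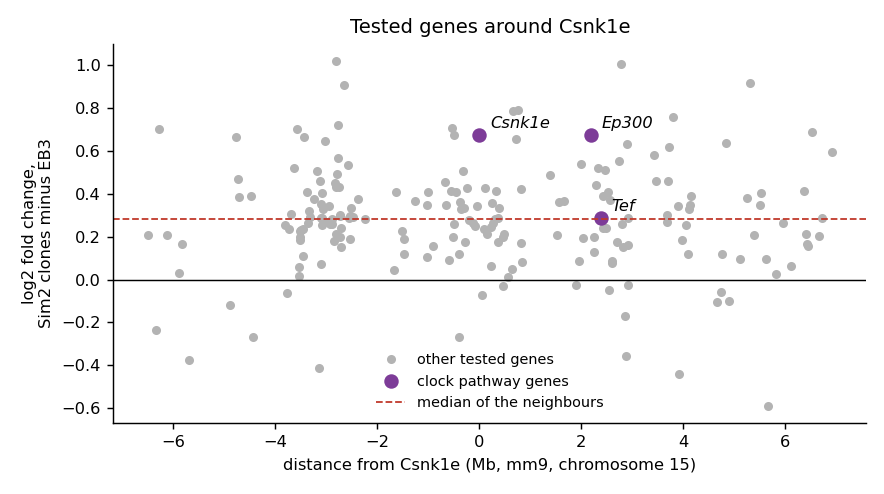
Difference between the Sim2 clones and EB3 in log2(RPKM + 0.5) for the tested genes within 8 Mb of Csnk1e on chromosome 15, against the distance in Mb from Csnk1e. Purple points are the clock pathway genes Csnk1e, Tef and Ep300, grey points the other genes, and the dashed line is the median of the neighbours (0.28). Most points lie above 0, with Csnk1e (0.672) and Ep300 (0.674) above the line and Tef on it.

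Among the genes with the next smallest p-values, Bhlhe40 (chr6:108610623-108616919), which encodes DEC1, a repressor that competes for E-boxes, was at 10.3, 15.1 and 15.0 RPKM in A6, B8 and C4 and at 9.69, 6.67 and 7.51 RPKM in EB3-0, EB3-1 and EB3-2. The lowest clone was just above the highest EB3 culture. Its log2 fold change was 0.72 ± 0.19 (SE; 95% interval 0.28 to 1.15, limma adjusted p = 0.116), and without EB3-0 the adjusted p in limma was 0.0471, where 5.99% of tested genes were called. Bhlhe40 shares 118 of its 3272 annotated exon bases with 0610040F04Rik on the opposite strand.

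Ppp1cb, a catalytic subunit of protein phosphatase 1, was at 55.1, 63.2 and 60.3 RPKM in the clones and at 64.7, 95.4 and 93.5 RPKM in EB3, with every clone below every EB3 culture. Its log2 fold change was -0.48 ± 0.15 (SE; adjusted p = 0.163 in limma, and 0.0164 without EB3-0). Gm129, the older symbol of Ciart, a repressor of CLOCK and BMAL1, was at 10.6, 13.6 and 16.5 RPKM in the clones and at 19.2, 16.9 and 18.5 RPKM in EB3, again without overlap, and had a log2 fold change of -0.43 ± 0.16 (SE; adjusted p = 0.208 in limma). Csnk2a1, a catalytic subunit of casein kinase 2, was at 43.9, 43.2 and 43.6 RPKM in the clones and at 55.3, 50.6 and 50.04 RPKM in EB3. Its log2 fold change was -0.25 ± 0.082 (SE; adjusted p = 0.172 in limma). Csnk2a1 and Gm129 have near copies elsewhere in the genome, 2696 bases at 99.6% identity and 1341 bases at 95.2% identity, so their levels are uncertain. None of the 10 clock genes had such a copy.

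The remaining paralogs of the 10 genes were at low or middle levels. Nr1d2 was at 6.55, 8.09 and 7.70 RPKM in A6, B8 and C4 and at 6.89, 10.2 and 9.65 RPKM in EB3-0, EB3-1 and EB3-2, with a log2 fold change of -0.23 ± 0.17 (SE; adjusted p = 0.517 in limma). It was -0.40 without EB3-0 (limma adjusted p = 0.0949) and -0.12 with trends in length and GC content removed, and Nr1d2 has a near copy of 3233 bases at 96.8% identity. Arntl2, the paralog of Arntl, was at 0.481, 0.223 and 0.508 RPKM in the clones and at 0.105, 0.365 and 1.01 RPKM in EB3, a range that contains the clones. Hlf, the third relative in the family of Dbp and Tef, was at 0.485, 1.10 and 0.456 RPKM in the clones and at 0.821, 0.891 and 0.825 RPKM in EB3, with B8 above and the other clones below the EB3 cultures. Both genes were under the filter on low values.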

How the data were processed

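Messenger RNA had been sequenced with the TruSeq RNA kit in 3 Sim2 clones and 3 EB3 cultures, grouped by the sample labels. The authors mapped paired reads to mm9 with BWA at default settings, counted reads over RefSeq exons with their own pipeline and deposited RPKM per gene, and they tested differences with edgeR. The BWA version, the use of strand and the handling of reads with several positions are not given in the sources used here. It lists 22602 genes, with 0 unused per-sample columns. Listed positions overlapped the mm9 annotation for 99.0% of 21655 matched symbols.

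RPKM values are not counts, so log2(RPKM + 0.5) was tested with limma 3.58.1 (lmFit, eBayes with intensity trend) in R 4.3.3 on all 6 libraries without covariates. The 11595 genes (51.3%) with a mean of at least 1 RPKM were tested and adjusted together by the Benjamini-Hochberg method. An adjusted p under 0.05 is called, and intervals are 95% intervals. Exact permutation tests were added for single genes and ratios. RPKM times cDNA length gave whole reads for 100% of values (tolerance 0.01), which gave the depth of 25095861 to 28269340 reads and a limma voom alternative. Counts of reads do not tell mates or duplicates apart.

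Neighbours are the 10 nearest tested genes on each side. Copies are blastn 2.17.0 matches of at least 200 bases and 90% identity. The fit was tested on simulated data. Alternatives changed the pseudocount (0.1 or 1), the filter (none or 0.5 RPKM), scaling, the trends with cDNA length and GC content (natural splines with 5 degrees of freedom, 96.1% of tested genes with a GC value), the treatment of EB3-1 and EB3-2, the test and the libraries used. The 10 genes, the list of 39 further genes (2 found under older symbols) and the markers were chosen with earlier results of these data known. Genes named are the 10, Sim2, Arnt, every further gene called and those with the 5 next smallest p-values, the family relatives Arntl2, Nr1d2, Tef, Hlf, Bhlhe40 and Csnk1e, and genes that overlap a member. Proteins and the SIM2 binding data were not used here.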

Additional observations from a re-analysis of the deposited data

How the results depend on the processing

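The number of the 10 clock genes called was 0 under each of 16 other settings, where 0.699% of all tested genes were called in the main fit. The filter let 8 of the 10 be tested, or 9 at 0.5 RPKM and 10 with no filter. Per2 and Npas2 could therefore not be called in most settings. Over 8 tested genes and those settings, 117 of 128 log2 fold changes kept their direction. Changing the filter or dropping the intensity trend cannot alter a fold change, so part of that agreement was fixed in advance. None of the 8 genes was called, and the lowest limma adjusted p was 0.160, for Cry2 without EB3-0. With trends in length and GC content removed, Arntl turned to 0.013 and Per1 to -0.15. All other changes of direction came from leaving out a library. Leaving out each library in turn gave -0.20 to 0.29 for Clock, -0.10 to 0.018 for Arntl, -0.024 to 0.091 for Per1, -0.23 to -0.00029 for Per3, -0.11 to 0.049 for Cry1, -0.11 to 0.031 for Nr1d1 and -0.37 to 0.0066 for Dbp. Among the ratios, Arntl2 over Arntl turned to 0.058 with a pseudocount of 0.1, 0.091 with EB3-1 and EB3-2 averaged and 0.019 with trends removed, and Nr1d2 over Nr1d1 to 0.00030 with trends removed. Leave-one-out values ran from -0.11 to 0.22 for Per3 over Per2, -0.42 to 0.22 for Npas2 over Clock, -0.38 to -0.15 for Cry1 over Cry2 and -0.32 to 0.34 for Arntl2 over Arntl. Of the 39 further genes, the number called fell from 1 to 0 with no filter, median centring, TMM factors, EB3-1 and EB3-2 averaged, or no intensity trend, and ran from 0 to 4 when a library was left out. The 4 came without EB3-0 (Bhlhe40, Csnk1e, Ppp1cb and Sirt1, the last named after its values were seen). In that fit 5.99% of all tested genes were called, against 0.699% with all 6 libraries. The number of steps with the same order in every library was 6 to 7 under the 9 settings it was run for. These were pseudocount 0.1, EB3-1 and EB3-2 averaged, trends removed and each library left out. A step that holds in 6 of 6 libraries must hold when a library is left out, so those counts could not fall below 6. With 5 libraries the smallest exact sign-flip p is 0.0625. The causes were not tested. No paired analysis was possible because the clones carry no replicate numbers shared with EB3. With 3 libraries a group, the standard errors of the 8 genes were 0.0996 to 0.295, and reads of Npas2 were too few for a comparison.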
